A study of Mus musculus with 6 samples.

Results

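Border macrophages are the resident macrophages of the meninges, the perivascular spaces and the choroid plexus, and 195 of 77421 kept single nuclei from mouse brain (0.252%, 95% exact binomial interval 0.218 to 0.29%) met a marker rule for them. The rule asked for at least 500 UMIs (unique molecular identifiers, 1 for each captured RNA molecule), at least 300 genes, at most 5% mitochondrial UMIs, and a UMI of at least 2 of the 8 genes Mrc1, Cd163, F13a1, Pf4, Lyve1, Ms4a7, Stab1 and Cd209f, with Mrc1 or F13a1 among them. It allowed at most 1 UMI of Slc17a7, the vesicular glutamate transporter of excitatory neurons, and no UMI of the microglial genes P2ry12 and Sall1. The members were therefore chosen by measured levels of these genes, which are given below as a description only.

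The study profiled nuclei from 9-month-old B6 mice in 6 libraries, 1 for each group, with hippocampus named in the sample titles and the left hemisphere in the dissection protocol. FE3 and FE4 came from untreated mice of genotype APOE3 fl/fl or APOE4 fl/fl, which carry a floxed allele of human APOE. TAFE3_oil, TAFE3_tam, TAFE4_oil and TAFE4_tam came from mice that carried, on top of the same floxed APOE3 or APOE4 allele, the P301S tau transgene and a tamoxifen-inducible Cre written Aldh1la1CreERT in the labels, and that received oil or tamoxifen. Aldh1l1, the gene whose name that Cre resembles, is an astrocyte gene. All 6 groups share the floxed APOE allele and the age. An FE library and a TAFE oil library of the same allele differ in P301S, in the Cre and in oil together, and these cannot be told apart. How many animals went into each library is not stated in the labels. With 1 library a group, differences between groups were not tested: every interval below is a 95% exact interval that covers counting error only, and differences between libraries carry no replicate check.

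Border macrophages sit along vessels and meninges, where they take up proteins, lipids and debris from fluid and blood. Most share an origin with microglia but lie outside the brain tissue proper, and they are known for scavenger receptors and lectins in place of the homeostatic microglial genes. A subset, common in the dura and choroid plexus, is known for MHC class II, while perivascular and leptomeningeal cells are known for Lyve1 and the mannose receptor Mrc1.

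The promoters of the genes that define these nuclei are shown because all macrophages depend on PU.1 (Spi1), a transcription factor of the ETS family whose sites contain a purine-rich GAGGAA core. The letters GAGGAA, or TTCCTC on the opposite strand, were searched in the 250 bases before each RefSeq start site (build GRCm38.p6). Of the 8 rule genes 7 had a promoter in the table, and 4 of these 7 held a match, against 23.3% of all 32851 promoters. Among the other border macrophage genes 9 of 28 promoters held it, among microglial genes 6 of 12, and among neuronal genes 2 of 10. The matched stretches of Mrc1, the mannose receptor (chr2:14229359-14229404, plus strand), F13a1, the A subunit of coagulation factor XIII (chr13:37050285-37050330, minus strand), Pf4, platelet factor 4 or CXCL4 (chr5:90772407-90772434, plus strand), and Stab1, the scavenger receptor stabilin-1 (chr14:31168646-31168691, minus strand), lie upstream of the start site. They are printed 5′ to 3′ on the strand of the gene with the motif in capitals.
Mrc1: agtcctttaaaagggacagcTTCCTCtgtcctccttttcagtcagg
F13a1: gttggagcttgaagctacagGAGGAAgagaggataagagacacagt
Pf4: tcattgcttctgcagagcacTTCCTCat
Stab1: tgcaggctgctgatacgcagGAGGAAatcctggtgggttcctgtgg
A match is a description of the letters, and binding was not measured here. Cd163, Ms4a7 and Cd209f had no match in this window.

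The 195 members were not all macrophages by the rest of their RNA. In 119 nuclei the lists of macrophage genes (the 8 rule genes, 36 other border macrophage genes and 18 microglial genes) held more UMIs than the lists of neurons, astrocytes, oligodendrocytes and their precursors, endothelial cells, mural cells and fibroblasts together; these nuclei are called macrophage-led. The other 76 were led by neuronal genes in 36 nuclei, by astrocyte genes in 19, by mural genes in 8, by fibroblast genes in 5, and by endothelial and oligodendrocyte genes in 4 each. Macrophage-led members numbered 7 of 21 for FE3, 16 of 21 for FE4, 27 of 40 for TAFE3_oil, 8 of 19 for TAFE3_tam, 35 of 53 for TAFE4_oil and 26 of 41 for TAFE4_tam. Their median depth ran from 883 to 1053 UMIs over the libraries, while that of the other members ran from 2383 to 6565.5 UMIs. The other members held most of the RNA in each library except FE4: 95.3% of the members' UMIs for FE3, 38.9% for FE4, 73.2% for TAFE3_oil, 90.1% for TAFE3_tam, 68.1% for TAFE4_oil and 70.9% for TAFE4_tam. Smooth muscle genes such as Acta2 (591 UMIs), Tagln (370 UMIs) and Myh11 (127 UMIs) stood among the 15 genes most enriched in the members as a whole, and none of them stood among the 15 of the macrophage-led nuclei. The doublet caller scrublet marked 1 of the 119 macrophage-led nuclei and 14 of the other 76. Expression is described below in the macrophage-led members, a class chosen after the data were seen, and values over all members are named as such.

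**Figure D1:**
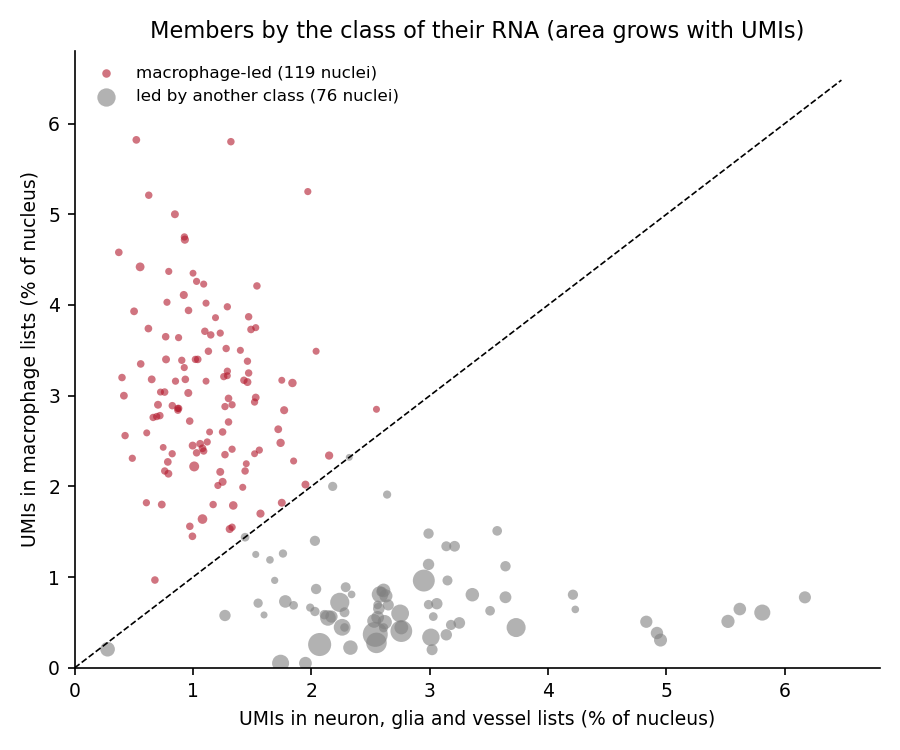
Each point is 1 of the 195 members, placed by the percentage of its UMIs in the lists of neuron, glia and vessel genes (x axis) and in the macrophage lists (y axis), with the area growing with its total UMIs. The 119 macrophage-led nuclei (red) lie above the dashed line of equal shares and are small, and the other 76 (grey) lie on or below it and include all of the deepest nuclei.

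At the edge of the rule, 52 members had a UMI of exactly 2 rule genes and 18 of them were macrophage-led, against 101 of the 143 members with 3 or more. Just outside it, 224 nuclei had a UMI of Mrc1 or F13a1 but of no second rule gene, and 13 of these were macrophage-led. A further 22 nuclei failed on P2ry12 or Sall1, 23 on Slc17a7, 78 on the lack of Mrc1 and F13a1, and 77 on the mitochondrial limit. The last group was uneven, with 17 nuclei for FE3, 3 for FE4, 13 for TAFE3_oil, 19 for TAFE3_tam, 24 for TAFE4_oil and 1 for TAFE4_tam.

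Across the series the 6 libraries held 96252 barcodes and 39050503 to 49083723 UMIs each, with a median of 2283 to 2652 UMIs in kept nuclei. The mitochondrial limit removed 8.99% of barcodes in FE4 and 11.3% in TAFE4_tam, and 20.8 to 30.2% in the other 4 libraries. Every pair of libraries shared between 65 and 83 barcode sequences; no barcode was a member in more than 1 library, and 5 member barcodes also occurred in another library. Free RNA was present: in the 1743 to 2619 nuclei a library with more than 1 Slc17a7 UMI, 78.6 to 99.4% held a UMI of APOE and 0.16 to 0.573% held a UMI of Mrc1, at median depths of 3180 to 3680 UMIs.

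Stab1 was the most abundant of the 8 rule genes in macrophage-led members. Its level per 1000000 UMIs (CPM) was 4943 for FE3, 3381 for FE4, 4383 for TAFE3_oil, 3761 for TAFE3_tam, 2798 for TAFE4_oil and 3434 for TAFE4_tam, and 112 of 119 nuclei held a UMI. Mrc1 stood at 2137, 947, 1833, 1755, 1486 and 2340 CPM in the same order of libraries and was found in 100 of 119 nuclei. Both were present in all 6 libraries. Mrc1 ran from 947 CPM in FE4, on 14 UMIs, to 2340 CPM in TAFE4_tam.

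Cd163, the haemoglobin scavenger receptor, was found in 41 of 119 nuclei at 801, 947, 359, 125, 347 and 453 CPM, and F13a1 in 65 nuclei at 1336, 1217, 638, 125, 842 and 906 CPM. These levels rest on 1 to 34 UMIs a library, with 1 UMI of each gene in TAFE3_tam, and both genes helped to choose the members. Pf4 was found in 39 nuclei at 338 to 878 CPM, Ms4a7, a membrane protein of border macrophages, in 53 nuclei at 338 to 1003 CPM, and the C-type lectin Cd209f in 41 nuclei at 541 to 2004 CPM. Lyve1, the hyaluronan receptor, was the exception: 13 UMIs in 9 nuclei, with 0 UMIs in FE3 and TAFE3_tam. In the microglia-like nuclei described below the same 4 defining genes were close to 0, at 4.85 CPM for Mrc1, 1.94 for F13a1, 3.88 for Cd163 and 5.82 for Pf4 over all libraries. These genes chose the members, so their levels are no check of the label. Genes of other blood cells, which the rule did not use, were low: the haemoglobin list summed to 40.9 CPM, the T and NK cell list to 49.1, the B and plasma cell list to 81.8 and the monocyte list to 172 CPM, with Ly6c2 at 0 UMIs and Ccr2 at 2 UMIs.

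Outside the rule, and leaving out mitochondrial, ribosomal and unnamed genes, the genes most enriched in macrophage-led members over all other kept nuclei were Cd209g, a C-type lectin of the family of Cd209f, with 60 UMIs in the members and a log2 ratio of 10.69 (10.16 to 11.22), Cbr2, a carbonyl reductase of tissue macrophages, with 9.69 (9.15 to 10.22), and Clec10a, a galactose-binding lectin, with 9.63 (9.19 to 10.06). The chemokine Ccl8 followed with 8.69, Tslp with 8.12 and Dab2, a clathrin adaptor for endocytosis, with 7.17. Ms4a6b, Lyz2, Tgfbi, Ms4a6c, Emr1 (the F4/80 antigen), Ctsc, Ifi203, Fcrls and Ccl12 completed the 15 genes, at log2 ratios of 6.89 down to 5.32. The sign in each library is no check for these 15 genes, because the floor set on low counts can make the members higher without a UMI. Ms4a6c had no UMI in the macrophage-led members of FE3. Dab2, Lyz2, Ctsc, Ccl8 and Ccl12 each had a UMI or more in the macrophage-led members of every library. Cd209g, Cbr2, Clec10a, Dab2, Ms4a6b, Tgfbi and Ms4a6c are in the list of other border macrophage genes and Fcrls is in the microglial list, and these lists decided which members were macrophage-led, so the 15 are a description. Reads of Cd209f and Cd209g, of Ms4a6b and Ms4a6c, and of the class I genes named below may be split between near-identical relatives.

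Macrophage-led members were 7 of 10948 kept nuclei for FE3 (0.0639%, 0.0257 to 0.132%), 16 of 16537 for FE4 (0.0968%, 0.0553 to 0.157%), 27 of 11631 for TAFE3_oil (0.232%, 0.153 to 0.338%), 8 of 10817 for TAFE3_tam (0.074%, 0.0319 to 0.146%), 35 of 13046 for TAFE4_oil (0.268%, 0.187 to 0.373%) and 26 of 14442 for TAFE4_tam (0.18%, 0.118 to 0.264%). The share was highest in the 2 oil libraries with P301S and lowest in FE3, TAFE3_tam and FE4. All members, which the rule defines, gave 0.192% for FE3, 0.127% for FE4, 0.344% for TAFE3_oil, 0.176% for TAFE3_tam, 0.406% for TAFE4_oil and 0.284% for TAFE4_tam. The 2 oil libraries were again the highest.

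**Figure D2:**
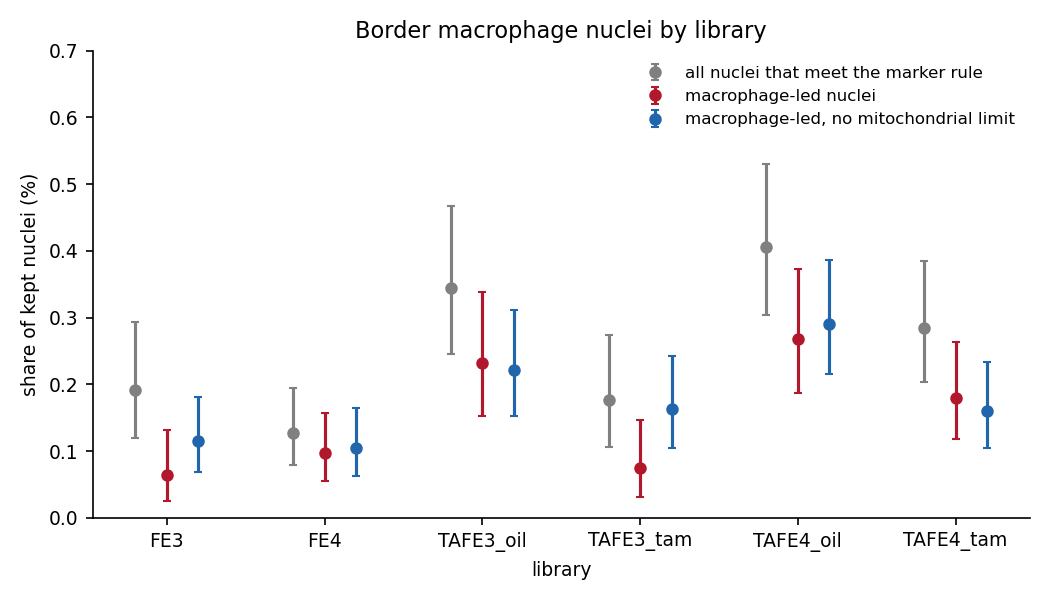
Share of kept nuclei (y axis, in %) in each library (x axis), for all members, for macrophage-led members and for macrophage-led nuclei without the mitochondrial limit; bars are 95% exact binomial intervals. TAFE3_oil and TAFE4_oil are the highest under each of the 3 counts, and TAFE3_tam rises from 0.074% to a value near that of TAFE4_tam once the limit is lifted.

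The TAFE3_oil share of all members exceeded the FE3 share by 0.84 on the log2 scale (0.05 to 1.68), and that of TAFE4_oil exceeded FE4 by 1.68 (0.92 to 2.48). In macrophage-led members the differences were 1.86 (0.63 to 3.30) and 1.47 (0.58 to 2.42), and without the mitochondrial limit 0.95 (0.08 to 1.86) and 1.47 (0.68 to 2.32). Each of these intervals lay above 0, but in the APOE3 pair it included 0 for all members without the mitochondrial limit, at 0.55 (-0.07 to 1.20), for nuclei of at least 1000 UMIs, at 0.36 (-0.64 to 1.37), with scrublet doublets left out, at 0.83 (-0.02 to 1.74), and with nuclei thinned to 1000 UMIs, at 0.79 (-0.50 to 2.16). The microglia-like nuclei, set by at least 3 microglial genes, moved in the same direction and further, from 3.14% for FE3 and 5.22% for FE4 to 21.5% for TAFE3_oil and 23.8% for TAFE4_oil. Macrophage-led members per 100 of all microglia-like nuclei accordingly went from 2.03 for FE3 and 1.85 for FE4 to 1.08 for TAFE3_oil and 1.13 for TAFE4_oil. Most of these microglia-like nuclei were not macrophage-led. Those that were went from 0.612% of kept nuclei for FE3 and 2.46% for FE4 to 5.33% for TAFE3_oil and 4.91% for TAFE4_oil. In the APOE4 pair this was a smaller fold than that of macrophage-led members. Slc17a7 nuclei with a C1qa UMI went from 11% and 8.3% to 36.4% and 44% in the same order. The part of free RNA in these shares was not tested. Per 100 fibroblast-like nuclei, which mark the meninges and vessel walls from which these macrophages come, macrophage-led members went from 5.15 and 9.04 to 25.2 and 27.1. Per 100 endothelial-like nuclei they went from 16.3 and 21.6 to 28.1 and 53, while all members per 100 endothelial-like nuclei went from 48.8 to 41.7 in the APOE3 pair and from 28.4 to 80.3 in the APOE4 pair. The direction therefore depended on the class taken as reference.

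For tamoxifen over oil the log2 ratio of the share of all members was -0.97 (-1.84 to -0.15) in the APOE3 pair and -0.52 (-1.14 to 0.10) in the APOE4 pair. Among macrophage-led members the values were -1.65 (-3.00 to -0.47) and -0.58 (-1.37 to 0.20). Without the mitochondrial limit they became -0.45 (-1.27 to 0.35) and -0.87 (-1.62 to -0.15), and the pair whose interval excluded 0 changed. It changed in the same way for all members of at least 1000 UMIs, at -0.44 (-1.50 to 0.59) and -0.90 (-1.74 to -0.10), and on thinning to 1000 UMIs, at -0.69 (-2.06 to 0.60) and -1.06 (-2.19 to -0.02). Between alleles the log2 ratios of all members were -0.60 (-1.54 to 0.35) for FE4 over FE3, 0.24 (-0.38 to 0.87) for TAFE4_oil over TAFE3_oil and 0.69 (-0.12 to 1.56) for TAFE4_tam over TAFE3_tam. These 3 intervals included 0, and other settings gave intervals that did not. FE4 over FE3 reached -0.87 (-1.67 to -0.10) without the mitochondrial limit and -1.36 (-2.71 to -0.12) at 1000 UMIs or more. TAFE4_tam over TAFE3_tam reached 1.01 (0.11 to 1.98) with scrublet doublets left out and 1.28 (0.10 to 2.64) in macrophage-led members, and in the latter without the mitochondrial limit it was -0.03 (-0.88 to 0.84).

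The macrophage-led members were next set beside microglia-like nuclei that were macrophage-led by the same count of UMIs. These numbered 67 for FE3, 406 for FE4, 620 for TAFE3_oil, 412 for TAFE3_tam, 641 for TAFE4_oil and 1217 for TAFE4_tam, 3363 in all, and had median depths of 706 to 915 UMIs, close to those of the members. Of 5918 genes with at least 100 UMIs in both classes together, 3.46% were at least 2-fold higher in the members and 9.07% at least 2-fold lower, with a median log2 ratio of -0.15. The microglial list was part of the definition of the second class and of the count of macrophage UMIs, so its 11 of 18 genes that were lower are a description.

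Among genes of uptake, 6 of the 16 measurable members of the list were at least 2-fold higher and 3 lower, with a median log2 ratio of 0.51. Dab2 led with 1931 CPM against 53.6, a log2 ratio of 5.17 (4.88 to 5.47), and was higher in 6 of 6 libraries. Stab1 stood at 3.80 (3.63 to 3.98), and Pid1, an adaptor that binds LRP1, at 1.76 (1.52 to 1.99). The receptors Mertk, which takes up apoptotic cells, and Lrp1, a large lipoprotein receptor, were lower, at -1.54 (-2.28 to -0.89) and -1.17 (-1.81 to -0.61). The 6 higher genes were Mrc1, Stab1, Dab2, Pid1, the Fc receptor Fcgr2b and the clathrin adaptor subunit Ap2a2, and the 3 lower ones Mertk, Lrp1 and Bin1. Mrc1 and Stab1 are rule genes and Dab2 is in the list of other border macrophage genes, so these 3 helped to choose the members.

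Of 14 measurable genes among the other border macrophage genes 8 were at least 2-fold higher and 2 lower, with a median of 1.43; this list entered the count that made the members macrophage-led. Maf, a transcription factor of resident macrophages, stood at 1522 CPM against 433, a log2 ratio of 1.81 (1.59 to 2.04), and was higher in 5 of 6 libraries, with TAFE3_tam on 2 UMIs the exception. Maf is itself in the list of other border macrophage genes, so it helped to choose the members. Among 23 measurable transcription factors Maf was the 1 that was at least 2-fold higher. Another 5 were lower, among them Spi1 (on 2 UMIs in the members), Irf8, Hif1a and Rel. Irf8, a lineage factor of microglia and monocytes, stood at 254 against 745 CPM, a log2 ratio of -1.55 (-2.12 to -1.05).

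Tgfbr1, the type I receptor for TGF-beta, stood at 180 against 1067 CPM, a log2 ratio of -2.57 (-3.24 to -1.97), and Cx3cr1, the fractalkine receptor, at 172 against 730 CPM, -2.09 (-2.78 to -1.47); both were lower in 6 of 6 libraries. Smad7 and Skil, which are induced by TGF-beta and limit its signal, were among the 10 lowest genes, with 5 and 3 UMIs in the members. Csf1r, the receptor for the survival factor CSF1, had a log2 ratio of 0.12 (-0.16 to 0.38) summed over the libraries. By library it ran from -1.23 (-2.89 to 0.04) in FE3 to 1.35 (0.52 to 2.07) in TAFE3_tam. Csf1r and Cx3cr1 belong to the microglial list that chose the second class. By the same choice of genes, the 10 lowest also held Nav2, Lag3, Nav3, Mlxipl, Asph, Chd7, Olfml3 and Rasal3. The 10 highest included Dab2, Vcam1, an adhesion molecule, Fcgrt, the neonatal Fc receptor, Itsn1, Ms4a6b, Adam33, Wwp1, Pltp, a phospholipid transfer protein, and Lyz2. Dab2, Fcgrt and Ms4a6b are in the list of other border macrophage genes and Olfml3 is in the microglial list, and these lists helped to choose the classes.

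**Figure D3:**
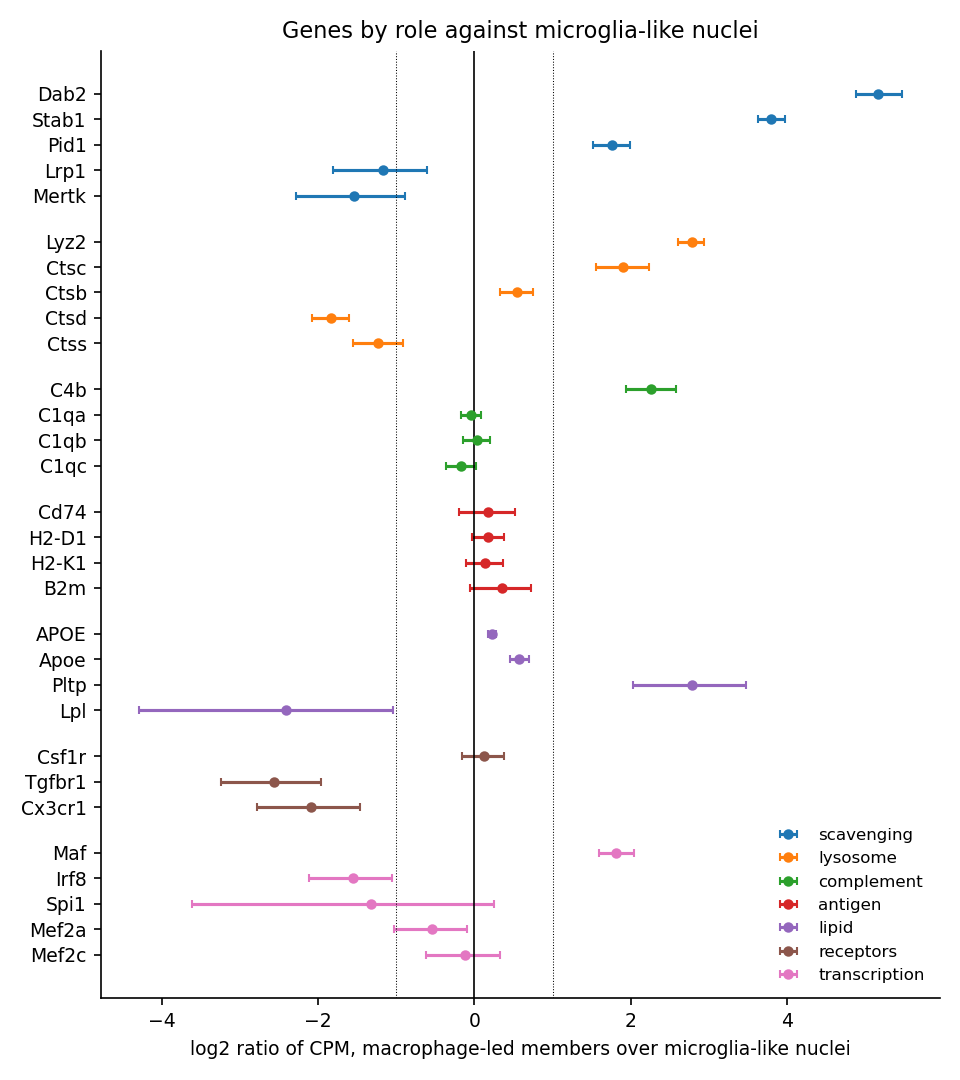
Log2 ratio of CPM in macrophage-led members over macrophage-led microglia-like nuclei, summed over 6 libraries (x axis), for genes ordered by role (y axis), with 95% exact intervals for counting error; dotted lines mark 2-fold. Dab2 (5.17) and Stab1 (3.80) lie far to the right, the C1q genes and Csf1r lie near 0, and Tgfbr1 (-2.57) and Cx3cr1 (-2.09) lie to the left.

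Lysosomal genes were mostly level, with 1 of 21 at least 2-fold higher, 3 lower and a median of 0.08. The 1 higher gene was Ctsc, cathepsin C, at 1.90 (1.56 to 2.23), and the lower ones included Ctsd, cathepsin D, at -1.84 (-2.08 to -1.60), and Ctss, cathepsin S, at -1.23 (-1.56 to -0.91). Lyz2, the macrophage lysozyme, which is outside that list, stood at 2.78 (2.61 to 2.94).

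Of 10 measurable genes of complement and coagulation 3 were at least 2-fold higher, F13a1, a rule gene, among them, and 1, the integrin Itgam, was lower. The C1q subunits, which start the classical pathway, were level, with log2 ratios of -0.04 (-0.17 to 0.09) for C1qa, 0.03 (-0.15 to 0.20) for C1qb and -0.17 (-0.36 to 0.02) for C1qc; all 3 are in the microglial list. C4b, a later component, was higher at 2.26 (1.94 to 2.58), in 6 of 6 libraries. C3 had 0 UMIs in 119 members.

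APOE, the lipoprotein that carries lipids between brain cells, was not used to choose the nuclei. The human APOE feature (ENSG00000130203) stood in macrophage-led members at 20839 CPM for FE3 (156 UMIs), 26572 for FE4 (393 UMIs), 29646 for TAFE3_oil (744 UMIs), 30713 for TAFE3_tam (245 UMIs), 29812 for TAFE4_oil (1204 UMIs) and 15623 for TAFE4_tam (414 UMIs). In the microglia-like nuclei it stood at 3583, 2262, 21540, 21738, 34003 and 22306 CPM in the same order. The members were thus already high in the 2 libraries without P301S, where microglia-like nuclei were low, and the classes were close in the 4 libraries with it.

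Within FE3 the members exceeded microglia-like nuclei by 2.54 on the log2 scale (2.24 to 2.84), and within FE4 by 3.55 (3.37 to 3.73). The log2 ratios in the other libraries were 0.46 (0.35 to 0.57) for TAFE3_oil, 0.50 (0.31 to 0.68) for TAFE3_tam, -0.19 (-0.27 to -0.11) for TAFE4_oil and -0.51 (-0.66 to -0.37) for TAFE4_tam. Summed over the 2 pairs, APOE in the oil libraries exceeded the FE libraries by 0.27 (0.13 to 0.41) in the members and by 3.50 (3.40 to 3.59) in microglia-like nuclei. APOE was found in all 119 members, at 2 to 101 UMIs a nucleus and a median of 236 per 10000 UMIs. In Slc17a7 nuclei, where APOE UMIs are read as free RNA, the level was 1111, 1016, 1633, 742, 2126 and 900 CPM. These nuclei are deeper than the members, which lowers CPM for a like amount of free RNA in a droplet. In UMIs a nucleus their medians were 2, 1, 4, 2, 6 and 2, against 20, 21.5, 26, 31.5, 29 and 12.5 in the members. The mouse Apoe feature was likewise higher in the members of the FE libraries. It stood at 3874 and 4665 CPM in FE3 and FE4 members against 534 and 256 CPM in microglia-like nuclei. Reads of the 2 near-identical genes may be split between the features.

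Lyz2 was above microglia-like nuclei in all 6 libraries by intervals above 0. Of the class I genes, H2-K1 was so in the 2 FE libraries, and H2-D1 in FE3, FE4 and TAFE3_tam. Lyz2 stood at 2672, 1555, 3507, 3886, 2773 and 4189 CPM in the members and at 122, 64, 682, 430, 603 and 408 CPM in microglia-like nuclei, so that the log2 ratio was 4.45 (3.21 to 5.85) in FE3, 4.60 (3.67 to 5.54) in FE4 and 2.20 to 3.36 in the other 4 libraries. In TAFE4_tam 1 nucleus held 49 of the 111 Lyz2 UMIs of the members, and in TAFE3_tam 1 nucleus held 15 of 31. H2-D1, a heavy chain of MHC class I, stood at 1069 and 1352 CPM in FE3 and FE4 members against 351 and 269 CPM in microglia-like nuclei, ratios of 1.61 (0.24 to 2.82) and 2.33 (1.55 to 3.05). In the libraries with P301S its ratios ran from -0.05 to 0.76, the last in TAFE3_tam with an interval of 0.07 to 1.37. From FE to oil libraries H2-D1 moved by 0.43 (-0.18 to 1.08) in the members and by 2.44 (2.15 to 2.73) in microglia-like nuclei, and H2-K1 by 0.46 (-0.26 to 1.25) and 2.38 (2.04 to 2.72). The FE values rest on 8 to 23 UMIs of these genes in 7 and 16 members.

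**Figure D4:**
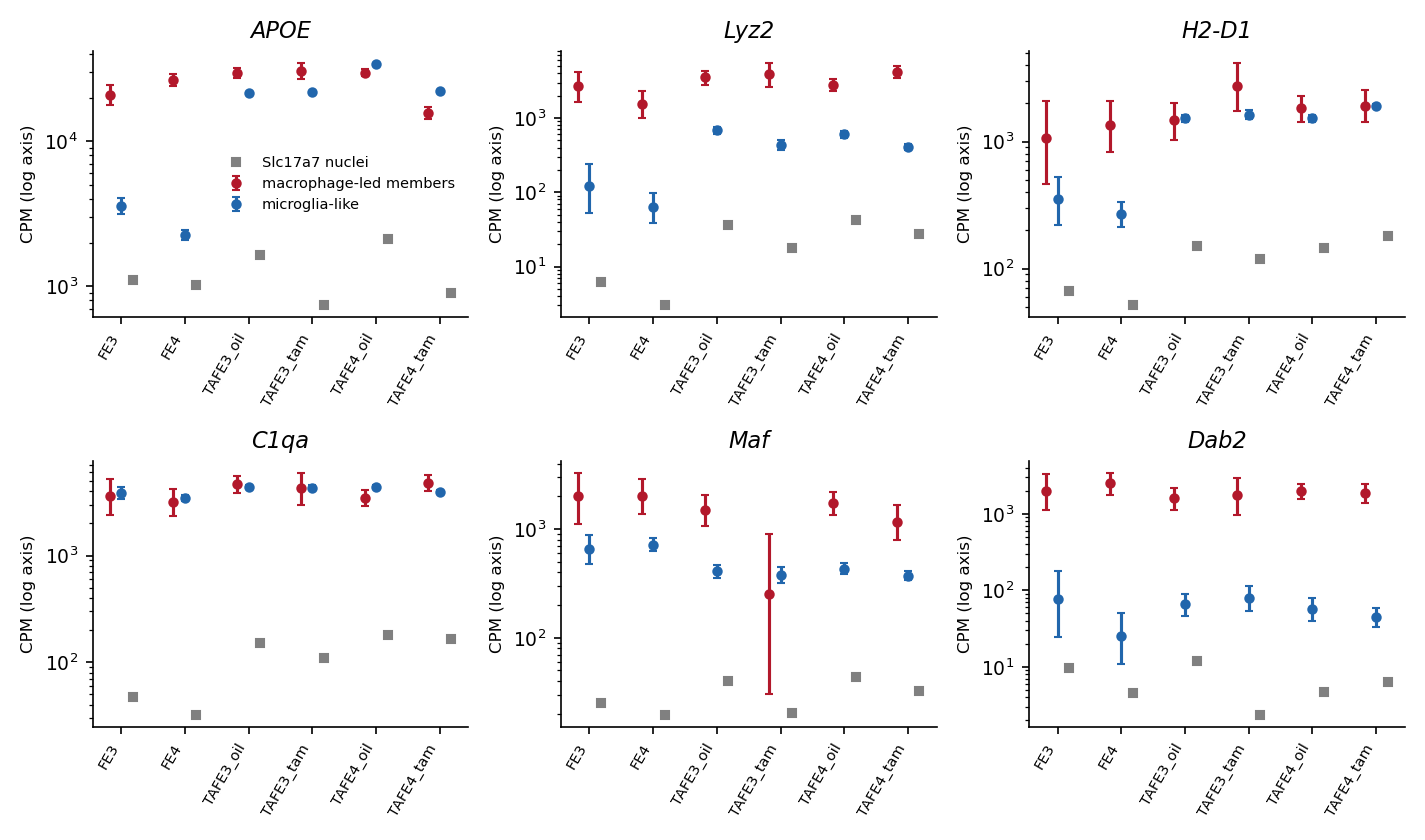
CPM on a log axis (y axis) of 6 genes in each library (x axis) in macrophage-led members, macrophage-led microglia-like nuclei and nuclei with more than 1 Slc17a7 UMI, with 95% exact Poisson intervals for the first 2 classes. APOE, Lyz2 and H2-D1 are above microglia-like nuclei in FE3 and FE4, C1qa lies close to them in every library, Maf is lower than in microglia-like nuclei for TAFE3_tam alone among the 6 libraries, and Dab2 is far above them in each.

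MHC class II genes were found in a minority. Of 119 macrophage-led members 31 (26.1%, 18.4 to 34.9%) held a UMI of at least 1 of Cd74, the invariant chain, and the chains H2-Aa, H2-Ab1 and H2-Eb1, and 16 held at least 2. The 31 nuclei were 2 of 7 for FE3, 2 of 16 for FE4, 5 of 27 for TAFE3_oil, 0 of 8 for TAFE3_tam, 8 of 35 for TAFE4_oil and 14 of 26 for TAFE4_tam. TAFE4_tam was highest at 53.8% (33.4 to 73.4%), and the 0 of 8 in TAFE3_tam allows a share of up to 36.9%. Cd74 stood at 668, 135, 279, 0, 470 and 1396 CPM, and up to 14 UMIs lay in 1 nucleus. Slc17a7 nuclei held a Cd74 UMI in 0.997 to 9.14% at the depths given above. Of the 9 nuclei with a Lyve1 UMI none held 2 or more class II genes; with 16 and 9 such nuclei of 119 an overlap of 0 is no measure of exclusion. Against microglia-like nuclei the class II list was level, with 0 of 6 genes at least 2-fold higher, 1 lower and a median of 0.47.

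**Figure D5:**
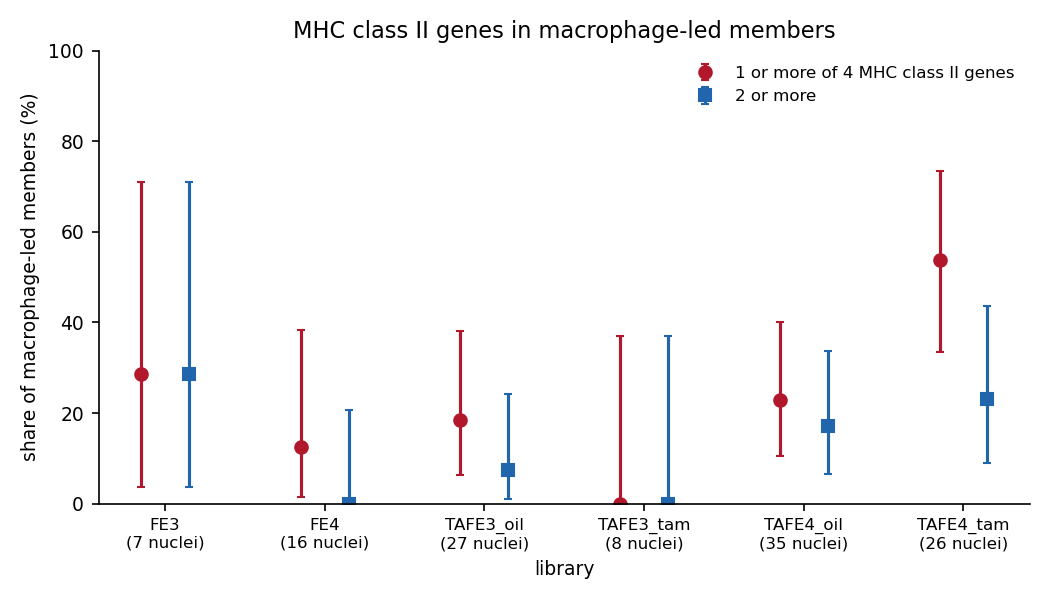
Share of macrophage-led members (y axis, in %) with a UMI of at least 1 (circles) or at least 2 (squares) of the 4 class II genes Cd74, H2-Aa, H2-Ab1 and H2-Eb1, by library (x axis), with 95% exact binomial intervals. TAFE4_tam is highest for 1 or more at 53.8%, and its interval overlaps those of FE3, FE4, TAFE3_oil, TAFE3_tam and TAFE4_oil.

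Chemokines lay in few nuclei. Ccl8, a ligand that attracts monocytes and T cells, was found in 17 of 119 members with 37 UMIs, at 801, 67.6, 199, 878, 248 and 302 CPM, against 7.11 CPM in microglia-like nuclei. Ccl12 was found in 17 members with 36 UMIs, and 18 of these UMIs lay in TAFE4_tam. Ccl7 had 10 UMIs, of which 9 lay in 2 nuclei of TAFE4_tam. Over the list of chemokines, cytokines and their receptors 2 of 17 genes were at least 2-fold higher than in microglia-like nuclei (Ccl12 and the growth factor Igf1). Another 6 were lower, among them Ccl3, Ccl4 and Csf1, each on 4 UMIs or fewer in the members. Igf1 is in the list of other border macrophage genes, so it helped to choose the macrophage-led members.

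Of 25 measurable genes of disease-associated microglia 9 were at least 2-fold lower than in microglia-like nuclei and 3 higher, with a median of -0.41, and the rest passed neither way. Spp1, osteopontin, had 0 UMIs in FE3 and FE4 members and stood at 79.7, 125, 272 and 340 CPM in TAFE3_oil, TAFE3_tam, TAFE4_oil and TAFE4_tam, on 2, 1, 11 and 9 UMIs. In microglia-like nuclei Spp1 stood at 15.2 and 9.6 CPM in FE3 and FE4 and at 608 to 835 CPM in the other 4 libraries. Lpl, the lipoprotein lipase, had 4 UMIs in all members and a ratio of -2.41 (-4.29 to -1.04). The 3 higher genes were Lyz2, Igf1 and Myo5a, of which Igf1 helped to choose the macrophage-led members.

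The comparison of oil libraries with P301S against FE libraries was first made over all members. Of 1300 genes with at least 30 UMIs, 8.31% were at least 2-fold higher for TAFE3_oil than for FE3 and 15% lower; of 551 genes, 21.1% were higher for TAFE4_oil than for FE4 and 7.44% lower. The median log2 ratio over all genes was -0.25 in the APOE3 pair and 0.20 in the APOE4 pair. With TMM scaling 77 genes were higher and 263 lower in place of 108 and 195 in the first pair, and 221 and 7 in place of 116 and 41 in the second, with medians of -0.43 and 0.79. The share of the members' RNA that came from nuclei led by other classes differed between the libraries of each pair as given above, and its part in these counts was not tested.

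By the rule for named genes, the 5 top-ranked genes with a positive ratio in both pairs were Fcer1g, the signalling chain of Fc receptors, Ctsc, Zwint, Gde1 and Txnip, and the 5 with a negative one were Vcam1, Clec2d, Serinc3, Mgp, a matrix protein of vessel walls, and Enpp2, an enzyme of the choroid plexus. Fcer1g and Vcam1 passed 2-fold in both pairs, and the intervals of Zwint, Gde1, Txnip and Enpp2 included 0 in both. Fcer1g stood over all members at 76 CPM for FE3, 124 for FE4, 224 for TAFE3_oil and 253 for TAFE4_oil, with log2 ratios of 1.56 (0.47 to 2.72) and 1.03 (-0.65 to 3.38). The FE4 members held 24220 UMIs of all genes together, so the FE4 value of Fcer1g rests on few UMIs. Zwint, Gde1 and Txnip stood at 124 CPM in FE4 as well. In macrophage-led members Fcer1g stood at 134, 203, 319 and 520 CPM, on 1, 3, 8 and 21 UMIs. A direction of Fcer1g in the APOE3 pair cannot be read there on 1 UMI in FE3. Vcam1 went over all members from 551 and 661 CPM in FE3 and FE4 to 139 and 134 CPM in the oil libraries, with log2 ratios of -1.99 (-2.95 to -1.14) and -2.30 (-3.37 to -1.22). In macrophage-led members it stood at 134 and 676 CPM in FE3 and FE4, on 1 and 10 UMIs. In the oil libraries it stood at 319 and 124 CPM there, on 8 and 5 UMIs. With 1 UMI in FE3 a direction in the APOE3 pair cannot be read in macrophage-led members. Mgp went from 2222 to 352 CPM in the APOE3 pair over all members and had 0 UMIs in FE3 macrophage-led members.

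To leave out nuclei led by other classes, macrophage-led members were summed over the libraries of each side. The 23 nuclei of FE3 and FE4 were set against the 62 of TAFE3_oil and TAFE4_oil. These nuclei still held RNA of other classes. In TAFE4_oil Meg3, of the neuronal list, stood at 3937 CPM, above Stab1 at 2798 CPM. Of 254 genes with at least 30 UMIs 9.06% were at least 2-fold higher in the oil libraries and 3.54% lower, with a median of 0.12; in microglia-like nuclei the same comparison gave 8.27% and 2.85% of 8077 genes. The genes named from this comparison were picked after their values were seen. Among the higher genes, Ubb, a polyubiquitin, was at 401 and 338 CPM in FE3 and FE4 and at 1315 and 1486 CPM in TAFE3_oil and TAFE4_oil, a log2 ratio of 1.98 (0.95 to 3.24). Hspa8, a constitutive heat shock protein, went from 134 and 270 to 996 and 1040 CPM, 2.19 (0.89 to 3.86), and Atp6v0c, a subunit of the lysosomal proton pump, from 668 and 676 to 1793 and 1659 CPM, 1.34 (0.56 to 2.23). The FE3 macrophage-led members held 7486 UMIs of all genes together, so the FE3 values of these 3 genes rest on few UMIs. In microglia-like nuclei the same genes had ratios of 1.04 (0.85 to 1.24) for Ubb, 0.98 (0.75 to 1.21) for Hspa8 and 0.61 (0.44 to 0.78) for Atp6v0c. Whether the 2 classes differ in these ratios was not tested.

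Cd163 had a log2 ratio of -1.35 (-2.28 to -0.41), F13a1 of -0.72 (-1.41 to 0.00), and Sepp1, the selenium carrier selenoprotein P, of -1.22 (-2.15 to -0.27) on 24 UMIs against 19. Mrc1 at 0.27 (-0.33 to 0.90) and Stab1 at -0.20 (-0.56 to 0.18) gave intervals that included 0. Of 7 rule genes with enough UMIs 1 was at least 2-fold lower and none higher, with a median of -0.20; their values chose the members. Of 6 other border macrophage genes none passed 2-fold in either direction, with a median of -0.41. Of 12 disease-associated genes 1 was higher and none lower, with a median of 0.29, and of 14 lysosomal genes none passed 2-fold in either direction, with a median of 0.23.

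With tamoxifen, the single pair with 20 or more members on both sides was APOE4. Over all members 4.96% of 1028 genes were at least 2-fold higher in TAFE4_tam than in TAFE4_oil and 3.79% lower; with TMM scaling 42 were higher and 52 lower in place of 51 and 39. Among macrophage-led members 5.56% of 180 genes were higher and 7.78% lower. TAFE3_tam held 19 members, under the minimum of 20, so the rule for naming genes by both pairs could not be applied for tamoxifen or for the allele.

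APOE was lower in the tamoxifen library of this pair. In macrophage-led members it went from 29812 CPM in TAFE4_oil to 15623 CPM in TAFE4_tam, a log2 ratio of -0.93 (-1.10 to -0.77), and mouse Apoe from 4655 to 3208 CPM, -0.54 (-0.92 to -0.16). In the APOE3 pair, given as values only, APOE stood at 29646 CPM in TAFE3_oil and 30713 CPM in the 8 members of TAFE3_tam. In Slc17a7 nuclei APOE went from 2126 to 900 CPM in the APOE4 pair and from 1633 to 742 CPM in the APOE3 pair, and in microglia-like nuclei from 34003 to 22306 CPM and from 21540 to 21738 CPM. Summed over both pairs, 34 tamoxifen against 62 oil members, 2.4% of 334 genes were at least 2-fold higher and 1.8% lower in macrophage-led members, against 1.43% and 1.32% of 10151 genes in microglia-like nuclei. Over that sum APOE had a log2 ratio of -0.64 (-0.77 to -0.51) in the members, which rests on the APOE4 pair. Emr1 had one of 1.23 (0.24 to 2.24), from 239 and 272 CPM with oil to 1003 and 491 CPM with tamoxifen. The part of free APOE RNA in the members' difference was not tested.

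In macrophage-led members of TAFE4_tam over TAFE4_oil, 3 of 12 lysosomal genes, 1 of 6 microglial genes, 1 of 6 complement genes and 0 of 3 class I genes were at least 2-fold higher, and none of these was 2-fold lower. Cd74 had a log2 ratio of 1.57 (0.73 to 2.45), C1qb of 1.03 (0.56 to 1.51), Ctss of 1.30 (0.40 to 2.23) and Cd68, a lysosomal membrane protein of macrophages, of 1.27 (0.15 to 2.45). Hspa8 and the metallothionein Mt1 were lower, at -1.98 (-3.38 to -0.81) and -2.09 (-3.62 to -0.84). Mitochondrially encoded genes were lower as well, mt-Atp6 by 1.58 (a log2 ratio of -1.58, -2.08 to -1.10), in a pair whose median mitochondrial share in kept nuclei was 1.86% in TAFE4_oil and 0.582% in TAFE4_tam. Ttr, the choroid plexus transthyretin that is read here as free RNA, stood at 223 CPM in TAFE4_oil members and 1925 CPM in TAFE4_tam members. The part of these library differences in the genes above was not tested. These genes were chosen after their values were seen.

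Between alleles, 3.69% of 1029 genes were at least 2-fold higher in TAFE4_oil than in TAFE3_oil over all members and 4.57% lower, and among macrophage-led members 3.18% of 157 genes were higher and 3.18% lower. With TMM scaling 45 were higher and 32 lower over all members in place of 38 and 47. APOE was close in both libraries, at 29812 against 29646 CPM and a log2 ratio of 0.01 (-0.13 to 0.14) in macrophage-led members. Stab1 was lower, at -0.65 (-1.04 to -0.26), and so was C1qa, at -0.43 (-0.79 to -0.06); neither reached 2-fold. Mt1 at 1.60 (0.48 to 2.91) and Trem2, a lipid-sensing receptor, at 1.26 (0.03 to 2.70) were among the 5 genes that were at least 2-fold higher. For FE4 over FE3, 11.6% of 813 genes were higher and 37% lower over all members, with a median of -0.79, and 33 were higher and 556 lower with TMM scaling. In that pair nuclei led by other classes held 95.3% of the FE3 UMIs and 38.9% of the FE4 UMIs, and FE3 held 7 macrophage-led members, too few for a ratio of its own.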

How the data were processed

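Nuclei of mouse brain were profiled in 6 libraries by droplet sequencing, 3′ end sequencing with 5′ kits per the labels' protocols. The authors deposited raw UMI counts per gene and barcode, and the file headers name Cell Ranger 3.1.0 as the software; the build mm10 and Seurat are named in the submitters' processing notes. The members and gene lists were chosen with earlier results of these data known. Nuclei were kept by UMIs, genes and mitochondrial share, and members found by the rule, in Python 3.11.15 with numpy 2.4.6, scipy 1.17.1 and pandas 2.3.3; figures used matplotlib 3.10.9. Scrublet in scanpy 1.11.5 marked 3.74 to 14.5% of kept nuclei in a library; marked nuclei stayed in, and were left out in an alternative. Microglia-like, fibroblast-like and endothelial-like nuclei needed a UMI of at least 3 genes of their list. Macrophage-led nuclei and sums over both pairs were chosen after seeing the data.

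Counts of a class were summed in each library and given per 1000000 UMIs of that class (CPM). Summed counts have exact Poisson intervals, shares exact Clopper-Pearson intervals, and log2 ratios exact conditional binomial intervals, at 95%. UMIs limit but do not remove PCR copies, so all intervals cover counting error only. A gene entered a comparison of libraries with at least 30 UMIs in both together, and one of classes with at least 100; 2-fold is the call, and a count of 3 is the floor of a ratio. Ratios of expression between single libraries needed 20 members in each library. Ratios between classes within a library and sums over both pairs had no such minimum. Alternatives were other depth, mitochondrial and marker limits, TMM factors (edgeR 4.0.16, R 4.3.3), gene filters and thinning to 1000 UMIs. The ratio code was tested on simulated data.

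Named genes were the 8 rule genes and APOE; up to 5 genes of each list with the most UMIs in members; for P301S, the 5 highest and 5 lowest of genes with 1 sign in both pairs; the 15 genes outside the rule most enriched over other nuclei; and the 10 highest and 10 lowest against microglia-like nuclei. Other genes were named after their values were seen. Protein sequences were not used here. Some genes that these rules name are not reported here.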

Additional observations from a re-analysis of the deposited data

How the results depend on the processing

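With 1 library a group the counts of nuclei set the precision: 7 to 35 macrophage-led members in a library leave intervals several-fold wide, and few genes reach 30 UMIs. Of 56 alternative values of the share ratios 54 stayed within the interval of all members. The ratio of TAFE3_oil to FE3 moved to 1.86 and that of FE4 to FE3 to 0.60 in macrophage-led members. The sign changed for the share of FE4 over FE3 (-0.60 over all members) in macrophage-led members and, to 0.03, without nuclei that held microglial genes. It changed for TAFE4_tam over TAFE3_tam (0.69 over all members) to -0.03 in macrophage-led members without the mitochondrial limit. Over all members APOE changed sign for TAFE4_oil over FE4 (-0.41) to 0.18 with TMM, and for TAFE4_oil over TAFE3_oil (0.02) to -0.21 without the mitochondrial limit and -0.07 without doublets. Of 73 alternative values for named genes 14 moved. No paired analysis was possible because each group has 1 library and the groups share fewer than 2 replicate numbers.

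Counts of genes past 2-fold moved with the filter on low counts in each comparison. For TAFE3_oil over FE3, 108 higher genes became 1506 with no filter and 12 at 100 UMIs, and 195 lower genes became 680 and 29. For TAFE4_oil over FE4, 116 higher genes became 180 without the mitochondrial limit, 221 with TMM and 12 at 100 UMIs, and 41 lower genes became 87, 7 and 6, and 9691 with no filter. For TAFE4_tam over TAFE4_oil, 51 higher genes became 79 without the mitochondrial limit, 10 in macrophage-led members, 12 in those without the limit, 909 with no filter and 7 at 100 UMIs; 39 lower genes became 131, 14, 20, 417 and 1. For FE4 over FE3, 94 higher genes became 146 without the mitochondrial limit, 33 with TMM, 10045 with no filter and 18 at 100 UMIs, and the lower genes became 556 with TMM and 108 at 100 UMIs. For TAFE4_oil over TAFE3_oil, 38 higher genes became 98 without the mitochondrial limit, 5 in macrophage-led members, 11 in those without the limit, 434 with no filter and 1 at 100 UMIs; 47 lower genes became 91, 5, 12, 878 and 9, and 20 without nuclei that held microglial genes. The gene filters change which genes are counted and the macrophage-led settings use fewer nuclei. With no filter, a gene at the floor of 3 in both libraries takes the ratio of their totals. The members held 24220 UMIs in FE4, 157979 in FE3 and 126682 in TAFE4_oil, so such a gene passes 2-fold in both pairs with FE4 named here. The 9691 lower and 10045 higher genes are therefore no count of genes that differ. For the other settings the cause was not tested.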

Other observations

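The 76 members led by other classes carried border macrophage genes at lower levels: Stab1 stood at 352 CPM over all libraries, Mrc1 at 259 CPM and F13a1 at 108 CPM, against 3526, 1734 and 843 CPM in macrophage-led members. Spp1, which vessel-associated cells also express, stood at 423 CPM in them against 188 CPM in macrophage-led members.

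Among macrophage-led members 46 of 119 held UMIs of both Mrc1 and F13a1, 54 of Mrc1 alone and 19 of F13a1 alone, while 95 held both Mrc1 and Stab1. In iron handling, 1 of 8 measurable genes, the iron exporter Slc40a1, was at least 2-fold higher than in microglia-like nuclei and 2 were lower. Slc40a1 is in the list of other border macrophage genes, so it helped to choose the macrophage-led members. Of 21 interferon response genes 1 was higher and 2 were lower, with a median log2 ratio of -0.37. Over all 5918 genes of the same comparison 3.46% were higher and 9.07% lower, with a median of -0.15.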
